A study of Mus musculus with 6 samples.

Results

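The genes described here are 8 liver-enriched transcription factors, chosen by name from the 41388 Ensembl genes measured: the nuclear receptors Hnf4a, Nr1h4 (encoding FXR) and Nr5a2 (encoding LRH-1), the forkhead factors Foxa1, Foxa2 and Foxa3, the leucine zipper factor Cebpa and the cut-homeodomain factor Onecut1 (encoding HNF6). RNA from primary hepatocytes of C57BL/6J mice, cultured overnight after collagenase digestion, was sequenced 24 h after adenovirus was added at about 1000000 viral particles per 1000000 cells. The control virus encoded β galactosidase (β-gal replicates 1, 2 and 3) and the other encoded the epidermal-type lipoxygenase ALOXE3 (Aloxe3 replicates 7, 8 and 9), so that every library came from virus-treated cells and no untreated culture was compared. The comparison addresses whether forced Aloxe3 expression changed the transcripts of the factors that maintain hepatocyte identity. The labels do not say whether replicates were separate cultures or animals, and p-values therefore measure the spread between these samples, which may be technical.

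Hepatocyte identity is maintained by a small set of transcription factors that bind the regulatory regions of liver genes together and also regulate one another. FOXA proteins open closed chromatin early in liver development. HNF4A is the main activator of genes for apolipoproteins, clotting factors and metabolic enzymes, and C/EBPα drives genes of the differentiated, nondividing hepatocyte. FXR senses bile acids, LRH-1 sustains bile acid and cholesterol genes, and HNF6 acts in hepatocyte and bile duct development and activates Hnf4a and Foxa2.

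The promoters of 5 of these genes are shown first, Onecut1 because its transcript differed most between the groups, and the other 4 because they held letters that members of the same set are known to bind. Sequences are from RefSeq (GRCm38.p6), 5′ to 3′ on the gene's strand and outside any annotated exon. Capitals mark a match to the letters searched on both strands. The Onecut1 window, chr9:74861671-74861920 on the plus strand, held none of the letters searched. The Hnf4a window, chr2:163506607-163506807 on the plus strand, belongs to the upstream of its RefSeq starts. The Foxa2 window is chr2:148046970-148047219, the Nr1h4 window chr10:89506659-89506908 and the Foxa1 window chr12:57546122-57546361, all on the minus strand. The Nr1h4 and Foxa1 windows precede RefSeq starts that lie within the annotated gene, so they are not the outermost promoters.
Onecut1: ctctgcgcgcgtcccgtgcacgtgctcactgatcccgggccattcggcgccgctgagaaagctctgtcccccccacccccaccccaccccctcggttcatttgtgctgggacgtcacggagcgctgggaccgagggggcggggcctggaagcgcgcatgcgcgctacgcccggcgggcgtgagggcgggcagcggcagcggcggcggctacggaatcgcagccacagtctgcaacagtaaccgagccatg
Hnf4a: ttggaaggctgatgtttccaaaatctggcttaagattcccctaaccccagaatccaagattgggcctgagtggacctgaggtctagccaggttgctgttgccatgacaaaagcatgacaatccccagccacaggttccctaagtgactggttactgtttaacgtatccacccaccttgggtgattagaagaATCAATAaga
Foxa2: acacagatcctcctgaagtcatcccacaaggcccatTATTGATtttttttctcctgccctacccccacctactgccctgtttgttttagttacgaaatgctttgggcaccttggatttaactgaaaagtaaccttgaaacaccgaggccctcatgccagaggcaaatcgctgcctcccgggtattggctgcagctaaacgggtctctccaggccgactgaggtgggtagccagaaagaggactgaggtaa
Nr1h4: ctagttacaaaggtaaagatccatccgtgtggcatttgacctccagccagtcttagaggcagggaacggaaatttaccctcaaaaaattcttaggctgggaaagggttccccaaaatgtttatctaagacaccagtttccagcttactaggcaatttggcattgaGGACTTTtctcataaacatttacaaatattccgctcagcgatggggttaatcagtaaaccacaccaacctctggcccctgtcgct
Foxa1: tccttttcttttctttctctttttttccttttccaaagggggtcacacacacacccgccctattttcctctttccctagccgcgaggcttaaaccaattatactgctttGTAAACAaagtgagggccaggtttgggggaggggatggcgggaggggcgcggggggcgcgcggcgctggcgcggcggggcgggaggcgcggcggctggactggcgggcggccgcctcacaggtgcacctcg

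The letters of an ONECUT site (ATCAATA) stood 59 bases before the upstream RefSeq start of Hnf4a and 214 bases before the start of Foxa2, and 2.05% of all 32851 promoter windows of 300 bases held them. The window of the downstream Hnf4a start held no ONECUT letters. It begins within an annotated exon and is not printed. An HNF4 site (AAAGTCC, 4.21% of windows) was matched 85 bases before the start of Nr1h4, and a FOXA site (TGTTTAC, 3.65% of windows) 141 bases before the start of Foxa1. HNF1 letters (GTTAATG or GTTAATA, 3.86% of windows) were found in the window of the downstream Hnf4a start, 75 bases before it, and in a second window inside Foxa2, 177 bases before that start. C/EBP letters (TTGCGCA, 2.02% of windows) and LRH-1 letters (AAGGTCA, 4.72% of windows) were in none of the 12 windows of the 8 genes. The matches found do not overlap one another, and a match is a description of these letters and not a bound site. The Onecut1 window had 38 CG pairs in 300 bases, a number reached by 4.95% of all windows, where the median window had 7. Of the 8 genes, Nr5a2 had the promoter window with the fewest CG pairs (2).

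Library sizes ran from 25521908 to 32431318 reads, all from a single sequencing run, and levels are in RPKM, which divides a gene's reads by its length in kilobases and by the library size, and a single read over 1 kb of exon stands for 0.0308 to 0.0392 RPKM. The viral gene checked the labels: Aloxe3 was at 2.04, 2.06 and 1.74 RPKM in β-gal libraries and at 42.3, 45.8 and 56.3 RPKM in Aloxe3 libraries. All 12 hepatocyte markers were measured above the filter, their summed level ran from 9221 to 9687 RPKM, and Alb, encoding albumin, was at 4362 to 4552 RPKM. The sum does not mean that each marker was high. Cps1, which is on this list, passed the filter only at a low level, given below with the C/EBPα targets. Genes of bile duct cells were measured too: Krt19 and Sox9 were at 32.9 to 51.0 RPKM and 38.3 to 49.3 RPKM, and osteopontin, Spp1, reached 1638 RPKM, whereas the bile duct markers Krt7, Epcam, Cftr and Tspan8 were each below 0.5 RPKM in every library. In bulk RNA, fewer cells of a type and less RNA per cell cannot be told apart. The Kupffer cell markers Clec4f, Vsig4 and Timd4 were at or below 0.102 RPKM in every library, the stellate marker Lrat was listed at 0 throughout, and 4 of 8 pancreas and gut markers (Pdx1, Ins2, Prss2 and Cpa1) were listed at 0 in all libraries.

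All 8 factors passed the filter of a mean of at least 0.5 RPKM, which left 12693 genes to test. None of the 8 passed the adjusted threshold of 0.05 (limma on log2(RPKM + 1), Benjamini-Hochberg over all tested genes), where 0.394% of all tested genes did (0.355% higher and 0.0394% lower with Aloxe3). At an unadjusted p under 0.05 there were 5 of 8, Onecut1, Foxa1, Nr5a2, Foxa2 and Nr1h4, all higher with Aloxe3, when 12.7% of all tested genes passed that level (7.31% higher and 5.42% lower). The same 5 genes had Aloxe3 libraries that all lay above all β-gal libraries, and none was separated the other way; 11.2% of tested genes were separated upward and 8.71% downward (19.9% in all). The log2 fold change, given throughout as Aloxe3 over β-gal on the log2(RPKM + 1) scale, was positive for 7 of 8 factors with a median of 0.16, while 52.4% of all tested genes were positive and their median was 0.0049. The 8 factors were chosen with earlier results of these data known, so these counts are descriptions. The 5 separated genes and the 3 that overlapped (Hnf4a, Foxa3 and Cebpa) are seen side by side in the plot of RPKM by library.

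**Figure D1:**
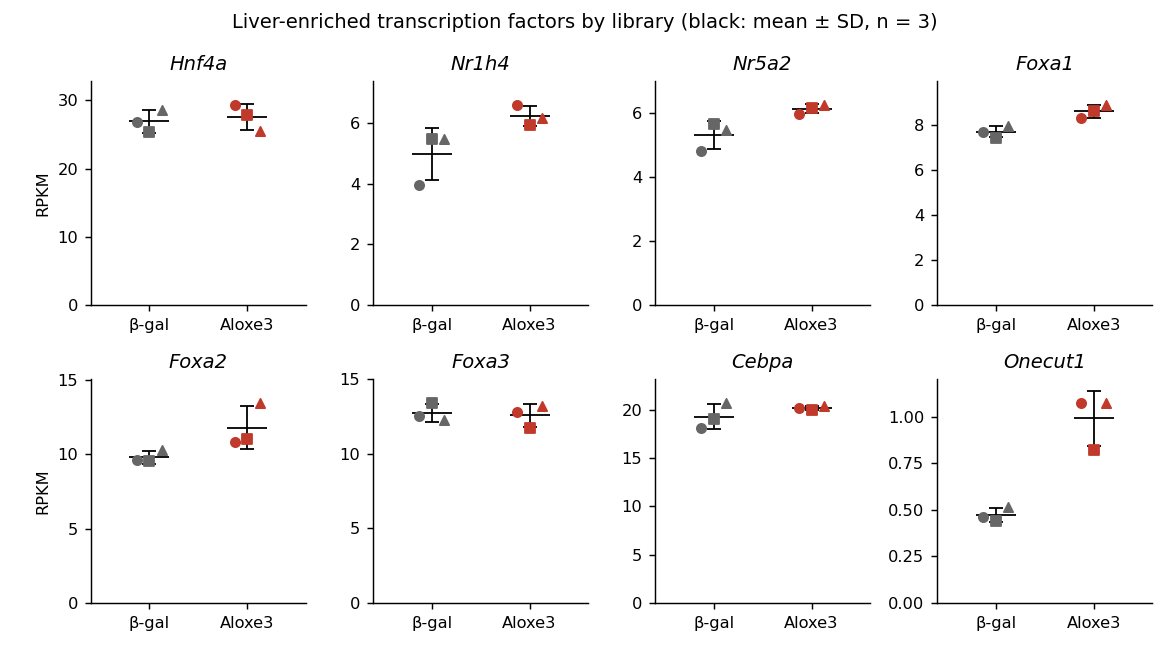
RPKM (vertical axes, starting at 0, a separate scale for each gene) of the 8 factors in the 3 β-gal libraries (grey; circle, square and triangle are replicates 1, 2 and 3) and the 3 Aloxe3 libraries (red; replicates 7, 8 and 9), with the mean and SD in black. The groups do not overlap for Nr1h4, Nr5a2, Foxa1, Foxa2 and Onecut1, and Onecut1 has the widest relative gap, from 0.473 to 0.992 RPKM on average.

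By level, which RPKM allows to be compared between genes because it is per length, the factors fell in the order Hnf4a (27.2 ± 1.6 RPKM, SD, n = 6 libraries), Cebpa (19.7 ± 0.98 RPKM), Foxa3 (12.7 ± 0.64 RPKM), Foxa2 (10.8 ± 1.5 RPKM), Foxa1 (8.16 ± 0.55 RPKM), Nr5a2 (5.71 ± 0.53 RPKM), Nr1h4 (5.60 ± 0.90 RPKM) and Onecut1 (0.733 ± 0.300 RPKM). Neighbors with overlapping ranges were Foxa3 with Foxa2 and Nr5a2 with Nr1h4: Foxa3 was above Foxa2 in 5 of 6 libraries, and Nr5a2 above Nr1h4 in 4 of 6. The other 5 pairs of neighbors kept their order in every library without overlap. Hnf4a ranked 2156 by level among the 12693 tested genes, and Onecut1 ranked 11757. Onecut1 thus lay far below the other 7 factors, at 59 to 117 reads per library.

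Onecut1 (ENSMUSG00000043013; GRCm38 chr9:74861921-74891781, plus strand), the gene for HNF6, was at 0.460, 0.442 and 0.518 RPKM with β-gal and at 1.08, 0.824 and 1.08 RPKM with Aloxe3. In reads, these levels were 61, 59 and 63 against 113, 103 and 117. Every Aloxe3 library was higher, and the lowest of them was well above the highest control. The ratio of the mean RPKM was 2.10, and the log2 fold change was 0.43 (SE 0.08, 95% interval 0.26 to 0.61, unadjusted p = 5.7e-04, adjusted p = 0.0869), which missed the threshold. At this level the pseudocount of 1 RPKM compresses the difference: with a pseudocount of 0.1 RPKM the log2 fold change was 0.92 (adjusted p = 0.0907). With voom in limma on derived reads, without a pseudocount in RPKM, it was 1.05 (95% interval 0.70 to 1.39) and the adjusted p was 0.00232. That was the only call of a factor under any alternative, where voom called 1.37% of tested genes; over the 12 alternatives that kept the gene, its adjusted p ran from 0.00232 to 0.330. The overlapping lincRNA Gm20649 was listed at 0 in all libraries.

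The paralog Onecut2, which has a similar DNA-binding domain, was the more abundant, at 14.6, 12.9 and 13.1 RPKM with β-gal and 13.03, 13.05 and 14.1 RPKM with Aloxe3. Its log2 fold change was -0.01 (SE 0.06, 95% interval -0.14 to 0.12, adjusted p = 0.954). The share of Onecut1 in the summed RPKM of the pair was 3.39 ± 0.39% with β-gal and 6.89 ± 0.86% with Aloxe3 (SD, n = 3; two-sided p = 0.1 by an exact permutation test, which cannot give less with 3 against 3 libraries). The ratio of Onecut2 to Onecut1 RPKM was 31.8, 29.1 and 25.2 in the control libraries and 12.1, 15.8 and 13.1 in the Aloxe3 libraries. The ratio was lower in every Aloxe3 library, and Onecut2 was the major transcript of the pair in all 6 libraries.

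Among the nuclear receptors, Hnf4a (ENSMUSG00000017950; chr2:163506808-163572910, plus strand) was at 26.8, 25.4 and 28.6 RPKM with β-gal and at 29.3, 27.8 and 25.5 RPKM with Aloxe3. The groups overlapped, and the log2 fold change was 0.03 (SE 0.06, 95% interval -0.11 to 0.18, adjusted p = 0.873). Its sign turned when β-gal replicate 2 (-0.010) or Aloxe3 replicate 7 (-0.014) was left out. The antisense gene Hnf4aos reached 0.164 RPKM at most and the snRNA gene Gm25881 within the locus 1.497 RPKM. As the libraries do not mark strand, reads of a gene and an antisense partner cannot be told apart, and a level per gene does not separate the Hnf4a transcripts that start at the upstream and the downstream promoter.

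Nr1h4 (ENSMUSG00000047638; chr10:89454234-89533585, minus strand), which encodes the bile acid receptor FXR, was at 3.97, 5.48 and 5.48 RPKM with β-gal and at 6.58, 5.93 and 6.14 RPKM with Aloxe3. The Aloxe3 libraries were all higher, and β-gal replicate 1 was the lowest of the controls. The log2 fold change of Nr1h4 was 0.28 (SE 0.10, 95% interval 0.04 to 0.52, unadjusted p = 0.0266, adjusted p = 0.331). Without β-gal replicate 1 the log2 fold change was 0.16 (unadjusted p = 0.0275). The unadjusted p rose to 0.0809 without Aloxe3 replicate 7 and to 0.0544 without Aloxe3 replicate 9.

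Nr5a2 (ENSMUSG00000026398; chr1:136842571-136960448, minus strand), the gene for LRH-1, was at 4.81, 5.63 and 5.46 RPKM with β-gal and at 5.95, 6.16 and 6.23 RPKM with Aloxe3. Its groups did not overlap, but the highest control and the lowest Aloxe3 library were close. The log2 fold change was 0.18 (SE 0.06, 95% interval 0.04 to 0.31, unadjusted p = 0.0158, adjusted p = 0.291). As for Nr1h4, replicate 1 was the lowest of the controls.

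Of the forkhead genes, Foxa1 and Foxa2 were higher in every Aloxe3 library and Foxa3 overlapped. Foxa1 (ENSMUSG00000035451; chr12:57540628-57546916, minus strand) was at 7.71, 7.45 and 7.97 RPKM with β-gal and at 8.33, 8.61 and 8.89 RPKM with Aloxe3. Its log2 fold change of 0.14 (SE 0.04, 95% interval 0.04 to 0.24, unadjusted p = 0.0112, adjusted p = 0.275) came with a narrow spread in both groups. Foxa2 (ENSMUSG00000037025; chr2:148042877-148046969, minus strand) was at 9.60, 9.52 and 10.3 RPKM with β-gal and at 10.9, 11.03 and 13.5 RPKM with Aloxe3. Aloxe3 replicate 9 stood above the rest of its group, and the log2 fold change was 0.24 (SE 0.08, 95% interval 0.06 to 0.42, unadjusted p = 0.0173, adjusted p = 0.297). Without Aloxe3 replicate 9 the value for Foxa2 was 0.15 (unadjusted p = 0.0156). Without β-gal replicate 2, the unadjusted p was 0.0519 for Foxa1 and 0.0521 for Foxa2. Foxa3 (ENSMUSG00000040891; chr7:19013284-19023538, minus strand), the most abundant forkhead transcript of the 3, was at 12.5, 13.4 and 12.2 RPKM with β-gal and at 12.8, 11.7 and 13.2 RPKM with Aloxe3. Its groups overlapped, with a log2 fold change of -0.02 (SE 0.06, 95% interval -0.14 to 0.11, adjusted p = 0.927) that became positive without β-gal replicate 2 (0.019) or Aloxe3 replicate 8 (0.031).

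As a share of the summed Foxa RPKM, Foxa3 was at 42.0%, 44.1% and 40.1% with β-gal and at 40.0%, 37.3% and 37.1% with Aloxe3. The difference of the means, Aloxe3 minus β-gal, was -3.92 percentage points, and the groups did not overlap, although the nearest libraries were almost level (two-sided exact permutation p = 0.1). The share of Foxa2 was 32.2%, 31.3% and 33.8% with β-gal and 33.9%, 35.2% and 37.9% with Aloxe3, 3.24 points higher on average (exact permutation p = 0.1), and 2.14 points higher without Aloxe3 replicate 9. Foxa1 took 25.5 ± 0.86% of the sum with β-gal and 26.2 ± 1.2% with Aloxe3 (SD, n = 3), with overlapping groups (exact permutation p = 0.5); its difference of 0.67 points ran from 0.021 to 1.26 points when a library was left out. The summed Foxa level itself was 29.8, 30.4 and 30.5 RPKM with β-gal and 32.0, 31.3 and 35.6 RPKM with Aloxe3, so the sum was higher in every Aloxe3 library.

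**Figure D2:**
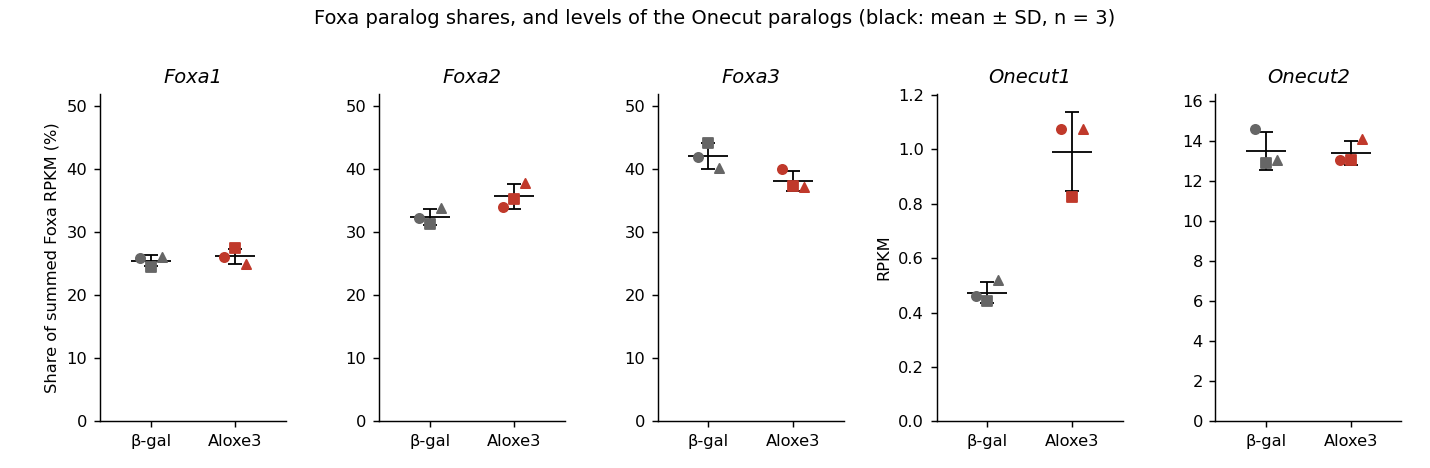
Shares of Foxa1, Foxa2 and Foxa3 in the summed Foxa RPKM (percent, left 3 plots) and RPKM of Onecut1 and Onecut2 (right 2 plots, separate scales from 0) in each β-gal (grey) and Aloxe3 (red) library, with the mean and SD in black. The Foxa2 share is higher and the Foxa3 share lower with Aloxe3 without overlap, and Onecut1 is higher while Onecut2 overlaps.

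Cebpa (ENSMUSG00000034957; chr7:35119293-35121928, plus strand), which encodes C/EBPα, was at 18.1, 19.1 and 20.7 RPKM with β-gal and at 20.2, 19.9 and 20.4 RPKM with Aloxe3. The Aloxe3 libraries lay close together and inside the control range, and the log2 fold change was 0.06 (SE 0.05, 95% interval -0.05 to 0.18, adjusted p = 0.637), with 0.02 when β-gal replicate 1 was left out and 0.11 when replicate 3 was. The overlapping antisense gene Gm45091 was not analysed here. Cebpb, which encodes another C/EBP protein that rises in stress and regeneration, was more abundant, at 99.5 to 101.7 RPKM with β-gal and 101.8 to 111.2 RPKM with Aloxe3. The lowest Aloxe3 library was just above the highest control (log2 fold change 0.09, SE 0.04, adjusted p = 0.423).

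**Figure D3:**
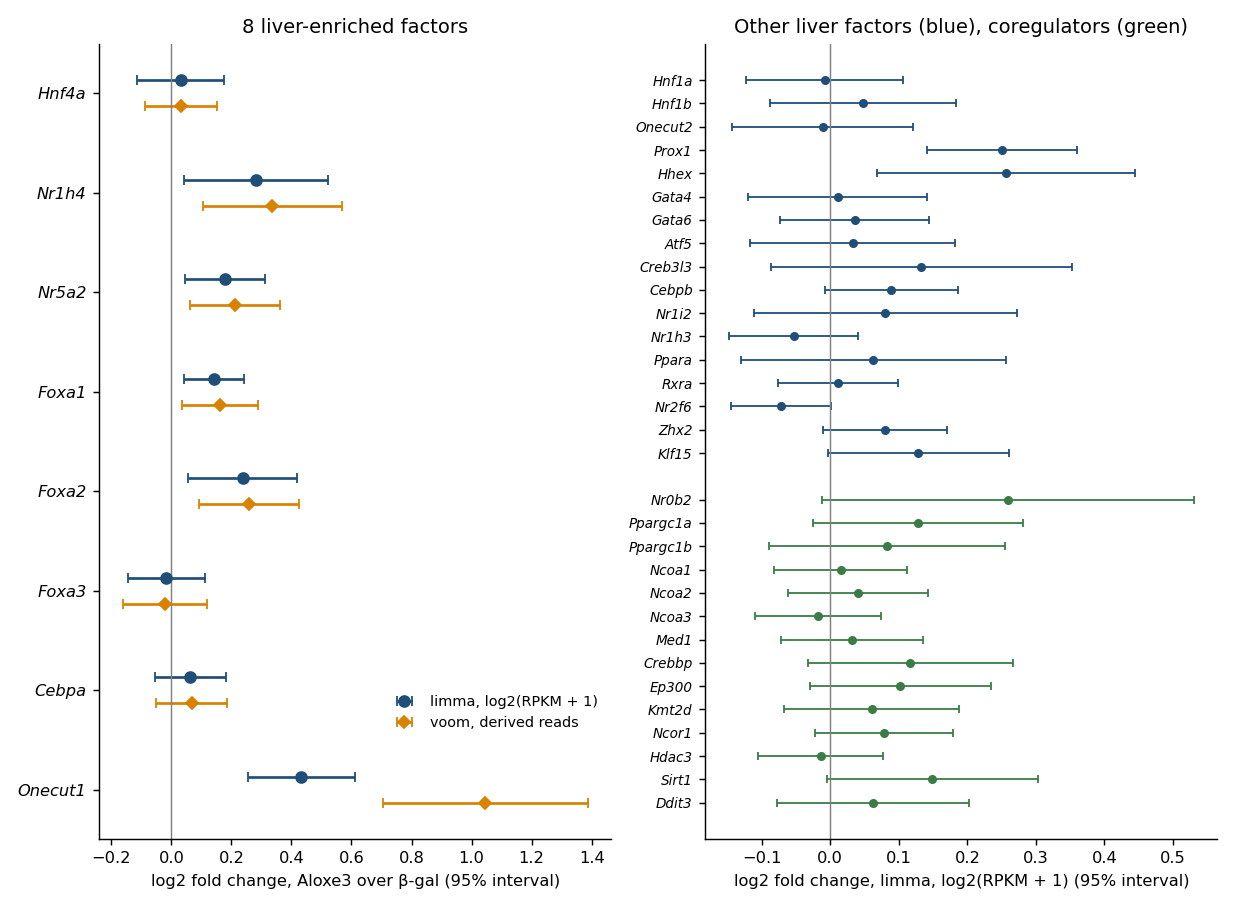
Log2 fold change (Aloxe3 over β-gal, horizontal axes) with its 95% interval, left for the 8 factors from limma on log2(RPKM + 1) (blue circles) and from voom on derived reads (orange diamonds), right for the 17 tested other liver factors (blue) and the coregulators shown (green) from limma on log2(RPKM + 1). Onecut1 is farthest from 0 among the 8, at 0.43 and 1.05 by the respective fits, and Hnf4a, Foxa3 and Cebpa have intervals that include 0.

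Of 19 other factors of the hepatocyte network, 17 were tested and none passed the adjusted threshold; 2 of the 17 were higher at an unadjusted p under 0.05 and none was lower, where 7.31% and 5.42% of all tested genes were. The groups were separated upward for 4 and downward for 1, against 11.2% and 8.71% of all tested genes, and the median log2 fold change of the 17 was 0.05. Prox1, a homeobox factor of early liver development and a corepressor of HNF4A and LRH-1, was at 2.92, 2.96 and 3.14 RPKM with β-gal and at 3.85, 3.66 and 3.79 RPKM with Aloxe3. Its log2 fold change was 0.25 (SE 0.05, 95% interval 0.14 to 0.36, adjusted p = 0.0993), and voom gave 0.33 with an adjusted p of 0.00839. Hhex, a homeobox factor needed for the liver bud, was at 25.5, 26.5 and 28.7 RPKM with β-gal and at 30.9, 29.7 and 36.7 RPKM with Aloxe3 (log2 fold change 0.26, SE 0.08, adjusted p = 0.289). Its log2 fold change was 0.17 without Aloxe3 replicate 9. Atf5, a stress-responsive factor that is abundant in liver, had the highest level of the list, from 286.8 to 336.3 RPKM. Nr1i3 and Tbx3 stayed under the filter.

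Of 16 coregulators, 15 were tested, and none passed the adjusted threshold or an unadjusted p of 0.05 by limma. Voom called none at the adjusted threshold, though some had an unadjusted p under 0.05 by voom, all higher with Aloxe3 (Sirt1 at 0.0261). Of the 15, 13 had a positive log2 fold change (52.4% of all tested genes had). None had separated groups, where 19.9% of all tested genes did and 12.7% passed the unadjusted p. Nr0b2, encoding SHP, the corepressor that FXR induces and that represses LRH-1 and HNF4A, was at 2.14, 2.51 and 2.57 RPKM with β-gal and at 3.88, 2.53 and 2.91 RPKM with Aloxe3. The groups overlapped, with Aloxe3 replicate 7 the highest, and the log2 fold change was 0.26 (SE 0.12, 95% interval -0.01 to 0.53, adjusted p = 0.413). Without that library the log2 fold change of Nr0b2 was 0.13. Sirt1, a deacetylase that acts on several of these factors, was at 2.97 to 3.603 RPKM with β-gal and 3.53 to 3.91 RPKM with Aloxe3 (log2 fold change 0.15, SE 0.07, adjusted p = 0.407). Ddit3, a stress-induced inhibitor of C/EBP proteins, was the most abundant of the list, at 99.7 to 118.3 RPKM.

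Textbook target genes were compared for each factor. Of 16 HNF4A targets, 15 were tested, and 2 fell and none rose past the adjusted threshold, which 0.0394% of all tested genes passed downward. Ttr, encoding transthyretin, was at 118.9, 131.4 and 122.1 RPKM with β-gal and at 99.4, 101.5 and 100.6 RPKM with Aloxe3 (log2 fold change -0.30, SE 0.04, adjusted p = 0.0448). Apoa2, an apolipoprotein of high-density lipoprotein, was at 284.1, 285.5 and 270.4 RPKM with β-gal and at 236.7, 236.9 and 236.5 RPKM with Aloxe3 (log2 fold change -0.24, SE 0.04, adjusted p = 0.0498). For both genes every Aloxe3 library was below every control, but each call was lost when any 1 library was left out. Of the 15, 4 had a positive log2 fold change, against 52.4% of all tested genes, and the median was -0.07, against 0.0049. At an unadjusted p under 0.05, 5 were lower and 2 higher (5.42% and 7.31% of all tested genes), and the groups were separated downward for 6 and upward for 3 (8.71% and 11.2%). Apob, the structural protein of very-low-density lipoprotein, was among the most abundant of the list and overlapped between groups at 232.4 to 254.8 RPKM.

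Of 15 FXR targets, 11 were tested, and 3 rose past the adjusted threshold (0.355% of all tested genes did), all fibrinogen chains. At an unadjusted p under 0.05, 4 were higher and 1 lower (7.31% and 5.42% of all tested genes), with the same numbers separated upward and downward (11.2% and 8.71%), and the median log2 fold change was 0.11. These are acute-phase genes that interleukin 6 signaling also induces, and their regulation by FXR is known best from human cells. Fga was at 25.5, 29.0 and 32.0 RPKM with β-gal and at 60.6, 53.3 and 58.8 RPKM with Aloxe3 (log2 fold change 0.98, SE 0.08, adjusted p = 0.00781). Fgg rose by 0.87 on the log2 scale (SE 0.08, adjusted p = 0.00781) and Fgb by 0.64 (SE 0.05, adjusted p = 0.00507). Without Aloxe3 replicate 7 only Fgb passed (adjusted p = 0.0542 for Fga and 0.0545 for Fgg), and without β-gal replicate 1 Fgg did not (0.0591). Abcb4, the canalicular phospholipid transporter, was at 2.78, 2.82 and 2.83 RPKM with β-gal and at 4.30, 3.56 and 4.11 RPKM with Aloxe3 (log2 fold change 0.39, SE 0.06, adjusted p = 0.0657), and voom called it, with a log2 fold change of 0.50 and an adjusted p of 0.00487. None of the other 7 tested targets was called by either fit, and Sdc1, one of the most abundant of the list, was at 54.4 to 58.3 RPKM.

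None of the 5 tested of 8 LRH-1 targets passed an unadjusted or adjusted p of 0.05, and voom called none, where the shares of all tested genes were 12.7%, 0.394% and 1.37%. Scarb1, the receptor for high-density lipoprotein, was at 18.4 to 19.5 RPKM and overlapped between groups, and glutaminase 2, Gls2, was at 7.56 to 8.39 RPKM. Abcg5, a sterol exporter subunit, was at 0.411 to 0.716 RPKM (log2 fold change 0.12, SE 0.08, adjusted p = 0.594). That value was 0.068 without Aloxe3 replicate 8 and 0.18 without β-gal replicate 3, and at this low level it was 0.28 with a pseudocount of 0.1 RPKM and 0.36 with voom. Cyp7a1, the rate-limiting enzyme of bile acid synthesis, was listed at 0 in all libraries, and Cyp8b1 stayed under the filter.

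Of the 6 tested of 9 FOXA targets, 1 fell past the adjusted threshold (0.0394% of all tested genes did), which was Ttr again. At an unadjusted p under 0.05, 2 were higher, against 7.31% of all tested genes, and 1 lower, against 5.42%. The largest positive value was that of Igfbp1, an insulin-repressed binding protein named after its values were seen, whose groups overlapped (log2 fold change 0.24, SE 0.08, adjusted p = 0.291). Alb overlapped between groups, and Trf, encoding transferrin, was at 101.8, 98.8 and 100.3 RPKM with β-gal and 113.5, 112.8 and 105.1 RPKM with Aloxe3 (log2 fold change 0.14, SE 0.04, adjusted p = 0.264). Among the 5 tested of 9 C/EBPα targets none passed the adjusted threshold and 1, Cps1, was higher at an unadjusted p under 0.05 (7.31% of all tested genes were); the groups were separated upward for 2 and downward for 1, against 11.2% and 8.71% of all tested genes. Cps1, the first enzyme of the urea cycle, was at 0.915, 0.988 and 1.05 RPKM with β-gal and at 1.64, 1.29 and 1.56 RPKM with Aloxe3 (log2 fold change 0.33, SE 0.07, adjusted p = 0.161), and voom called it at 0.59 with an adjusted p of 0.0138. F9, clotting factor IX, was at 7.02 to 7.49 RPKM with β-gal and 7.56 to 8.11 RPKM with Aloxe3 (log2 fold change 0.09, SE 0.04, adjusted p = 0.427).

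Of 10 HNF6 targets, 5 were tested, and Ttr was the only one called, where 0.0394% of all tested genes fell. At an unadjusted p under 0.05, 1 was higher (Foxa2) and 1 lower (Ttr), against 7.31% and 5.42% of all tested genes. Foxa2 and Hnf4a, whose printed windows held ONECUT letters, are on this list too, with the values given above. Tat, a tyrosine-degrading enzyme on the HNF6, FOXA and C/EBPα lists, was under the filter, and is named because its groups did not overlap, a choice made after its values were seen. It was at 0.193, 0.346 and 0.295 RPKM with β-gal and at 0.635, 0.438 and 0.661 RPKM with Aloxe3, or 15, 27 and 21 reads against 39, 32 and 42. Fitted without the filter, its log2 fold change was 0.30 (SE 0.08, adjusted p = 0.384). The gluconeogenic targets Pck1 and G6pc, shared by these lists, did not exceed 0.157 RPKM in any library.

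**Figure D4:**
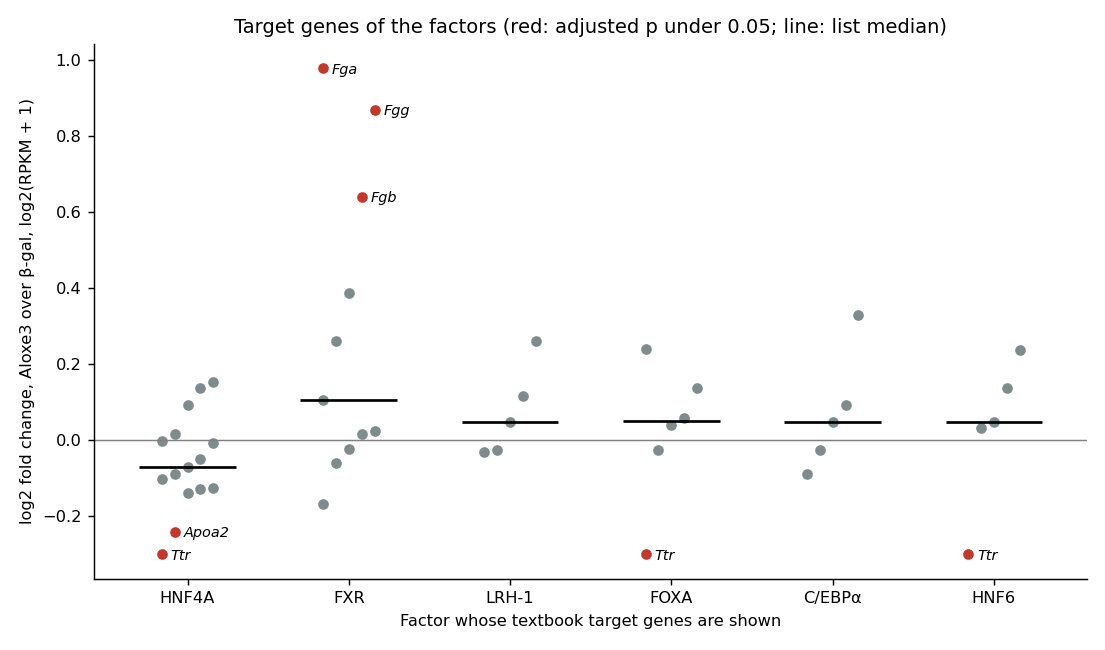
Log2 fold change (Aloxe3 over β-gal, log2(RPKM + 1) scale, vertical axis) of the tested target genes of each factor (horizontal axis), 1 point a gene, with the list median as a black line and genes past the adjusted threshold in red. The 3 fibrinogen genes stand above 0.6 in the FXR list, Ttr is at -0.30 in 3 lists, and Apoa2 at -0.24. Genes on several lists are drawn in each.

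HNF6 is also made in bile duct cells, so markers of other cells are given beside Onecut1. The summed level of the 8 bile duct markers was 1528 to 1609 RPKM with β-gal and 1596 to 1733 RPKM with Aloxe3, nearly all of it Spp1. Krt19 overlapped between the groups (log2 fold change -0.15, SE 0.14, adjusted p = 0.688). The summed level of the 8 Kupffer cell markers, nearly all Cd68, was 151.0 to 154.5 RPKM with β-gal and 133.0 to 146.2 RPKM with Aloxe3. Of the 5 tested Kupffer cell markers, 1 (Cd68) was separated downward and none upward, against 8.71% and 11.2% of all tested genes. Cd68 was at 148.6, 146.6 and 148.7 RPKM against 129.1, 128.8 and 141.4 RPKM (log2 fold change -0.15, SE 0.04, adjusted p = 0.262), and the part of these markers in the factors' values was not tested. The summed endothelial markers overlapped between the groups at 31.5 to 36.6 RPKM, as did the stellate markers at 4.39 to 5.02 RPKM. Among fetal liver genes, Afp was at 4.32 to 5.15 RPKM in all 6 libraries and Dlk1 was listed at 0. No tested gene of the bile duct, Kupffer, endothelial, stellate, pancreas and gut, or fetal lists passed the adjusted threshold by limma or voom. Of the 12 hepatocyte markers, Fgb rose and Ttr fell past it by limma, where 0.355% and 0.0394% of all tested genes did, and voom also called Cps1 higher.

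The genes whose pattern over the 6 libraries was most like that of each factor were found by the root mean square difference between log2(RPKM + 1) profiles centered on their own mean. For Onecut1 these were Abcb4 (difference 0.034) and the proliferation gene Mki67 (0.048), with log2 fold changes of 0.39 and 0.46. This likeness holds on that scale only, where the pseudocount compresses Onecut1 more than these higher genes. By voom the log2 fold change was 1.05 for Onecut1 and 0.50 for Abcb4. Nr5a2 was nearest to Resf1 and Sumo2, Foxa1 to Glis2 and Nfib, and Foxa2 to Reep6 and Samd1, with differences of 0.017 to 0.028. Nr1h4 was nearest to the antisense gene model Gm12909 (0.035) and to Orm3 (0.045), an acute-phase gene. For the factors that overlapped between groups, the nearest were Cdk5rap3 and Klhl42 to Hnf4a, Rgs19 and Fbxl19 to Foxa3, and Ell2 and Gm8566 to Cebpa, the closest pair being Cebpa and Ell2 (0.0081). In each library the compared genes share its depth and group, and likeness over 6 libraries is a description only.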

How the data were processed

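Primary murine hepatocytes (3 β-gal and 3 Aloxe3 libraries) were sequenced as poly-A RNA with single reads and a protocol that does not mark strand. Per the labels and the study, the authors aligned reads to the mouse genome (GRCm38.p2) with STAR 2.0.4b, counted uniquely aligned, unambiguous reads with Subread featureCounts 1.4.5, and deposited RPKM values for 41388 genes. The step from counts to RPKM is not given in the sources used here. Gene symbols and coordinates are from GENCODE M21 (GRCm38): 40340 identifiers matched and 1048 did not. Dropping ambiguous reads lowers the values of overlapping genes.

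Deposited RPKM values were not rescaled and were tested on the log2 scale after adding 1 RPKM. Genes averaging under 0.5 RPKM were left out, and 12693 remained. The model was fitted in R 4.3.3 by limma 3.58.1 with a mean-variance trend, with Benjamini-Hochberg adjustment over all tested genes at 0.05, and shares were tested with an exact permutation test (scipy 1.17.1). Reads per gene, used for voom, were derived from the whole-number steps of the RPKM values with the annotated exon length for 16416 genes and the smallest fitting length for 8573 (among them Nr5a2, Foxa1, Foxa3 and Cebpa, whose reads are known up to a common factor). They sum to 99.93% of the library size. Samples were grouped by the labels. The fit was tried on simulated reads with known changes and the same dispersion for every gene, which does not show how it does for more variable genes. Alternatives were a pseudocount of 0.1 RPKM, no filter or a mean of at least 5 RPKM, rescaling to a common median, quantile normalization, no trend, voom, and each library left out.

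The 8 members and all lists were chosen with earlier results of these data known, and list counts are descriptions. Named genes were the members, Aloxe3, and in each list the genes past the threshold, the 2 with the smallest p and the 2 with the highest level, and for each member the 2 nearest profiles. Transferrin is listed by its mouse symbol Trf in place of Tf. Values of some listed genes are not reported here. Promoter windows (RefSeq, GRCm38.p6) were found for all 8 members.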

Additional observations from a re-analysis of the deposited data

How the results depend on the processing

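No paired analysis was possible because the labels do not say whether any β-gal replicate (1 to 3) shares an origin with an Aloxe3 replicate (7 to 9). Genes near the filter, Onecut1 among them, rest on few reads, and a pseudocount of 1 RPKM understates their differences. The 50 calls over all genes became 7 without the filter on low values, 174 with voom and 6 to 19 when a library was left out. Voom called 1 factor (Onecut1), 1 other liver factor (Prox1) and 1 C/EBPα target (Cps1), each from 0. The 2 HNF4A target calls became 1 with a pseudocount of 0.1 or median rescaling, and 0 without the filter, with quantile normalization, without the variance trend and in every fit that left out a library (range 0 to 0). The Ttr call on the FOXA and HNF6 lists became 0 without the filter, with quantile normalization, without the trend and in each fit without a library (0 to 0). The 3 FXR target calls became 0 without the filter, and ranged from 1 (without Aloxe3 replicate 7) to 3 when a library was left out. The 2 hepatocyte marker calls became 0 without the filter, 1 with quantile normalization, 1 without the trend and 1 in each fit without a library (1 to 1). Leaving out a library moved the log2 fold change of Hnf4a from -0.014 to 0.083 and that of Foxa3 from -0.050 to 0.031. The cause of these changes was not tested. Every other factor kept its direction under all alternatives, and the promoter matches were the same in the 250 bases before the start alone.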
